A study of Mus musculus with 4 samples.

Results

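The Hox cluster genes were taken as the protein-coding genes of the mm9 annotation whose symbol is Hoxa, Hoxb, Hoxc or Hoxd followed by a digit. The rule found 39 genes, among 22367 protein-coding gene records, and it used no value of the DamID lists. There were 11 Hoxa genes on chromosome 6, 10 Hoxb genes on chromosome 11, 9 Hoxc genes on chromosome 15 and 9 Hoxd genes on chromosome 2.

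Hox genes encode homeodomain transcription factors that give cells of the embryo their position along the head-to-tail axis and along the limbs. Within a cluster the genes stand in a row from group 1, which acts toward the head, to group 13, which acts toward the tail and at the tips of limbs and in the genital tract. Polycomb proteins keep unused Hox genes silent and Trithorax proteins keep used ones active. Lamina-associated domains (LADs), the stretches of DNA that touch the lamina under the nuclear envelope (NE), tend to be poor in active genes.

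The study asked which regions change their contact with the NE when Tm7sf2, also called NET47, is missing. Tm7sf2 is a transmembrane protein with sterol reductase activity and a paralog of the lamin B receptor. The paper places a pool of it in the NE of several cell types. It places the main pool in the endoplasmic reticulum (ER) for most cell types tested. Primary hepatocytes from WT and Tm7sf2-KO mice of 12 to 16 weeks on a C57BL/6 background received lentivirus for 24 h, encoding either the Dam methylase fused to lamin B1 or Dam alone, and were harvested 60 h after transduction. This gave 4 libraries, LaminB1-Dam and Dam control in WT and LaminB1-Dam and Dam control in KO, each from the pooled DNA of 4 mice. All cells of both genotypes had therefore been isolated, cultured and transduced. With 1 LAD list per genotype there are no replicates, so no difference below carries an error between animals or a test. Many Hox genes of a cluster also have the same nearest LAD, so they are not replicates either.

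A LAD in these lists is a start and an end, with neither a strength nor a read count, so the depth behind any single LAD is unknown. The text of the study gives fewer usable reads for KO than for WT. There were 8107 LADs in WT and 16076 in KO, with median lengths of 40.8 and 38.8 kb, and they covered 55.4% and 56.1% of the chromosomes. Of these LADs, 27.0% were shorter than 20 kb in either genotype. The lists hold DNA and no expression, so the identity of the hepatocytes was not checked against marker genes, and whether any Hox gene changed its expression is not measured here.

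DamID reads contact at GATC sites, since Dam methylates the adenine of that motif. Around Hoxd, the cluster where LADs entered Hox genes, the LAD borders lay on such sites. The 6 borders that frame the cluster are shown because they mark how far each genotype's LADs reached toward or into the Hoxd genes. Each is a 30-base window of the plus strand of chromosome 2 (NCBIM37, the mm9 assembly), written 5′ to 3′, with each GATC in capitals. The first window, at chr2:74485471-74485500 between genes, holds the WT LAD end below Hoxd13. The next, at chr2:74496768-74496797 in an Evx2 intron, holds the KO LAD end on that side. The windows at chr2:74507700-74507729 in the Hoxd13 intron and chr2:74524355-74524384 in an untranslated exon part of Hoxd11 hold the start and the end of a KO LAD inside the cluster. The windows at chr2:74594402-74594431 and chr2:74605105-74605134, both between genes, hold the start of the KO LAD at Hoxd1 and of the WT LAD beyond it.
WT LAD end below Hoxd13: ctaaggagaagatGATCcaacagaatactc
KO LAD end in Evx2: gccccagctcttaGATCggcaagcgaaaca
KO LAD start in Hoxd13: gaaaaaccatgatGATCcatcaaattagcc
KO LAD end in Hoxd11: atGATCtttctggGATCatactgtttgttt
KO LAD start before Hoxd1: ttcaacacatagaGATCtttctgcctctgc
WT LAD start after Hoxd1: gaccaaccccaggGATCtttaaaagctttc
A GATC began within 5 bases before the border at 99.2% of all WT LAD borders and at 99.6% of all KO LAD borders.

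No Hox gene overlapped a LAD in WT, and 4 of 39 did in KO. All 4 were Hoxd genes: Hoxd13, Hoxd12 and Hoxd11, which pattern digits and the genital tract, and Hoxd1, the group 1 gene at the other end of the row. Across all protein-coding genes, 30.4% overlapped a WT LAD and 41.7% a KO LAD. By transcription start, no Hox gene lay in a WT LAD, where 22.7% of all genes did, and 3 Hox genes (Hoxd1, Hoxd11 and Hoxd12) lay in a KO LAD, where 32.8% of all genes did. The share of Hox genes in KO LADs was 10.3% by span and 7.69% by start, both below the share of all genes. Hox genes are short, with a median span of 4.06 kb against 15.4 kb over all genes, so a single interval can cover a gene whole.

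Differential regions (DRs) are the stretches of at least 10 kb that lie in a LAD of only 1 genotype. A gene is called PI when it overlaps a WT-only DR, IP when it overlaps a KO-only DR, ambiguous (AMB) with both, PP when it touches a LAD in both genotypes with no DR, and II otherwise. The 4 Hoxd genes in KO LADs were IP, a class that held 17.1% of all genes. The other 35 Hox genes were II, against 56.6% of all genes. No Hox gene was PI, PP or AMB, classes that held 5.43%, 17.9% and 2.96% of all genes. Thus 5 of the 9 Hoxd genes and every gene of Hoxa, Hoxb and Hoxc stayed outside LADs in both lists.

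The IP calls of the Hoxd cluster (chr2:74506367-74603200) came from 2 separate stretches, 1 at each end of the gene row. The first KO-only DR, chr2:74507716-74524370, was a KO LAD of 16.7 kb in its full length, with no WT LAD touching it. It ran from the intron of Hoxd13 to the last exon part of Hoxd11. The second, chr2:74594418-74605120, was the 10.7-kb front edge of a KO LAD of 66.6 kb, which in WT began only behind Hoxd1 and measured 30.7 kb there. These 2 stretches held 36 and 28 GATC sites. Both were shorter than 20 kb, as were 57.0% of all KO-only DRs, and with DRs of at least 20 kb 0 Hox genes were IP. Together 25.4 kb of the cluster, 26.3% of its length, lay in KO LADs, against 0 in WT.

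**Figure D1:**
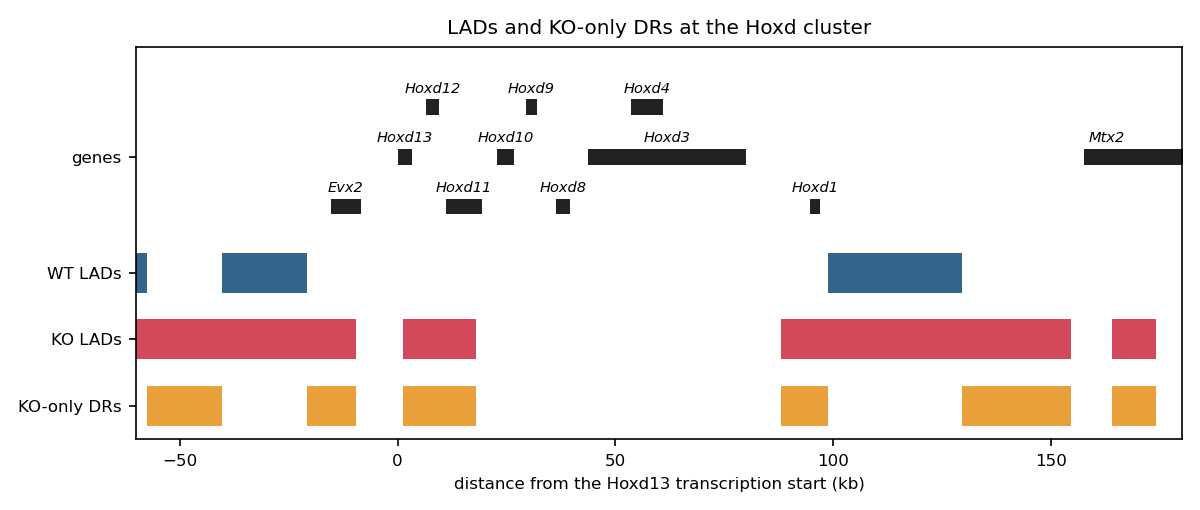
Map of the Hoxd cluster with distance from the Hoxd13 transcription start (kb) on the x axis and, from top to bottom, the spans of the Hoxd genes, Evx2 and Mtx2, the WT LADs, the KO LADs and the KO-only DRs as boxes. The WT LADs stop 20.9 kb below Hoxd13 and begin again 1.92 kb after Hoxd1, whereas KO LADs cover Hoxd12 and Hoxd1 whole and parts of Hoxd13 and Hoxd11.

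Hoxd13, the last gene of the row and the one mutated in human synpolydactyly, spans chr2:74506367-74509656 on the plus strand. Its start lay 20.9 kb from the nearest LAD in WT and 1.35 kb from it in KO, and 59.0% of its span, with 1 of its 2 exons, fell in the KO LAD. Its start and promoter remained outside, in a gap of 10.9 kb between KO LADs that held 21 GATC sites. In the deposited list Hoxd13 was thus entered from its intron onward and not at its start. This rests on the 10.9-kb gap. Joining LADs up to 50 kb apart closes it and places the start of Hoxd13 in a KO LAD too.

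Hoxd12 (chr2:74512986-74515763) lay 27.5 kb from a WT LAD and inside the KO LAD with 100% of its span and both exons. Hoxd11 (chr2:74517449-74525798), a regulator of forearm and kidney formation together with its Hoxa paralog, lay 32.0 kb from a WT LAD. In KO, 82.9% of its span, including its start and part or all of its 2 exons, was in the LAD. Hoxd12 and Hoxd11 were the genes of the posterior end whose starts lay in the KO LAD.

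At the anterior end, Hoxd1 (chr2:74601037-74603200) was the Hox gene nearest to a LAD in WT. Its start was 4.08 kb and its end 1.92 kb from the WT LAD, a stretch that held 8 GATC sites. In KO the LAD reached back over it, and 100% of its span and both exons were inside. Hoxd1 itself holds 3 GATC sites, compared with 6 in Hoxd12, 8 in Hoxd13 and 23 in Hoxd11, so few sites lie within the gene call itself.

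The 5 Hoxd genes in the middle stayed II but came nearer to a LAD. Hoxd10, which helps to lay out the lumbar spinal cord and hindlimb, went from 43.7 kb in WT to 4.78 kb in KO. Hoxd9 went from 50.3 to 11.4 kb and Hoxd8 from 57.2 to 18.3 kb. Hoxd3, which shapes the first neck vertebrae, went from 55.1 to 25.6 kb, and Hoxd4, its neighbor within the same stretch of DNA, from 45.1 to 34.4 kb. The order of the middle genes was therefore set by their place between the 2 entered ends, with Hoxd4 farthest from a KO LAD. All 9 Hoxd starts were nearer to a LAD in KO than in WT, by 4.08 to 38.9 kb.

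The promoters of the 3 genes whose starts lay in a KO LAD are shown because these 250 bases upstream of the start were outside LADs in WT and fully inside in KO. They were read from the plus strand of NCBIM37, 5′ to 3′, at chr2:74512736-74512985 (Hoxd12), chr2:74517199-74517448 (Hoxd11) and chr2:74600787-74601036 (Hoxd1, where the annotation also places an exon of the noncoding gene 6720416L17Rik), with each GATC in capitals.
Hoxd12 promoter: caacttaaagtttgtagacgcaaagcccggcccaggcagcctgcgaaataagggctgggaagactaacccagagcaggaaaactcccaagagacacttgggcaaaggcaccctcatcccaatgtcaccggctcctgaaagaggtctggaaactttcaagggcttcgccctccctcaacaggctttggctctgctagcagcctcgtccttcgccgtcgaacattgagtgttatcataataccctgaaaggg
Hoxd11 promoter: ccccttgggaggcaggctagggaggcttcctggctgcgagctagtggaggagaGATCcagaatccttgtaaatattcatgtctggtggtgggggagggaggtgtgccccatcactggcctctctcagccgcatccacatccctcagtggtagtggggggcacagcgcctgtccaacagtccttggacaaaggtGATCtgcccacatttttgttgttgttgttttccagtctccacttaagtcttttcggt
Hoxd1 promoter: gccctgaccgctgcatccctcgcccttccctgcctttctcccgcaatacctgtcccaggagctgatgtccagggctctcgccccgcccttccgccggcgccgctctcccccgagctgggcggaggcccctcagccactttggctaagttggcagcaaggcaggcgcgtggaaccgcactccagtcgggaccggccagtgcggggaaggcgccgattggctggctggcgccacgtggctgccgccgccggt
GATC, which reads the same on both strands, occurred 2 times in the Hoxd11 promoter and not in those of Hoxd12 and Hoxd1. The motif was present in 16 of 39 Hox promoters (41.0%) and in 40.2% of the promoters of all 22367 records. The Hoxd12 and Hoxd1 promoters were therefore placed in the LAD by sites around them and not within them. Their GC contents were 53.6% for Hoxd12, 55.2% for Hoxd11 and 71.6% for Hoxd1.

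The surroundings of the 4 clusters differed. In the 1 Mb centred on Hoxd, 75.6% of the bases lay in LADs in WT and 85.3% in KO, above the upper quartile over all genes of 62.6% and 66.9%. The same share was 3.02% and 6.34% for Hoxa, 1.26% and 5.11% for Hoxb and 9.33% and 9.92% for Hoxc, below the median over all genes of 23.2% and 28.8%. In all 4 windows the KO share was the higher one, as it was for the median gene. At Hoxc this turned when LADs up to 50 kb apart were joined (10.7% in WT and 9.92% in KO) and in 2-Mb windows (16.01% and 15.1%). The 2-Mb window at Hoxc was cut to 1686 kb by the end of chromosome 15. Hoxd was the only 1 of the 4 clusters set in LAD-dense DNA, and the only 1 with a Hox gene in a LAD.

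**Figure D2:**
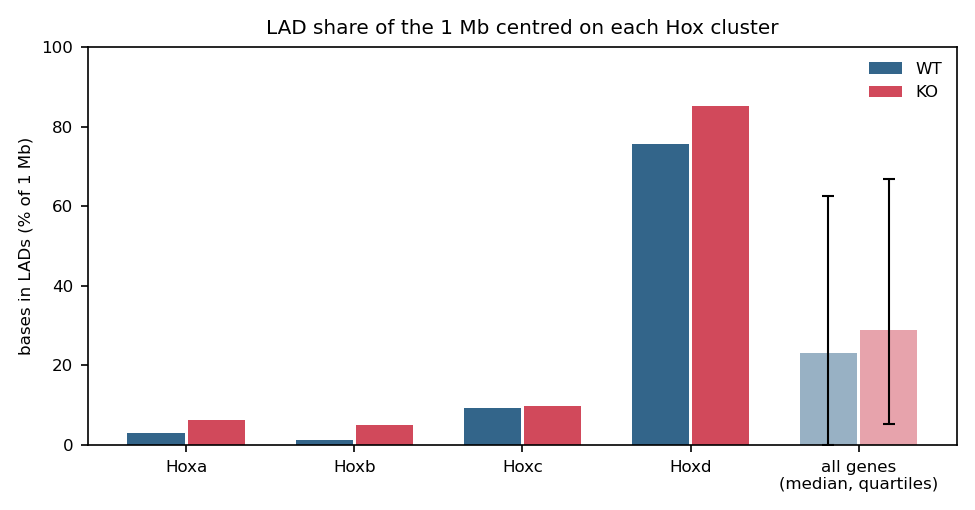
Bars give the bases in LADs (% of the 1 Mb centred on each cluster) in WT and KO, each from 1 list and without replicates. The last pair gives the median over all 22367 protein-coding gene records, with lines from the lower to the upper quartile. Hoxd stands at 75.6% and 85.3% and the other clusters under 10%.

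Around Hoxd, LADs stood on both sides at short distance. They took up 89.2% in WT and 96.4% in KO of the 500 kb below Hoxd13 and 81.3% and 88.5% of the 500 kb beyond Hoxd1. In WT the cluster lay in a LAD-free stretch of 119.6 kb, from chr2:74485487 to chr2:74605120, between a LAD of 19.4 kb on the Hoxd13 side and one of 30.7 kb on the Hoxd1 side. In KO the longest LAD-free stretch in the cluster was 70.0 kb, from the end of Hoxd11 to the intergenic DNA before Hoxd1. Such stretches had a median of 1409 kb in WT and 489 kb in KO over all genes whose start lay outside LADs. Within 1 Mb of Hoxd there were 10 KO-only DRs of 152.9 kb in all and 5 WT-only DRs of 103.3 kb. An excess of KO-only DNA was not particular to Hoxd. Around Hoxa there were 8 KO-only DRs of 197.8 kb and 3 WT-only DRs of 42.4 kb. Around Hoxb there were 3 of 70.8 kb and 1 of 12.6 kb. Hoxc had the reverse, with 2 KO-only DRs of 41.3 kb and 3 WT-only DRs of 65.6 kb.

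Some genes beside Hoxd also lay in KO-only DRs. Evx2, the homeobox gene next to Hoxd13 that is used with the posterior Hoxd genes in limbs, was IP, with 83.5% of its span in the KO LAD and none in WT. Lnp, which encodes the ER protein lunapark, was IP and went from 74.7% to 100% of its span in LADs. Mtx2, which encodes a mitochondrial import protein on the Hoxd1 side, was IP and went from 29.7% to 36.5%. The DRs behind these calls measured 11.3 kb at Evx2, 15.8 kb at Lnp and 10.1 kb at Mtx2, all under 20 kb. Those at Evx2 and Lnp were parts of the same KO LAD of 352.4 kb. Of the 9 other protein-coding genes within 1 Mb of Hoxd, 4 were IP, 4 were II and 1 was AMB. The corresponding numbers of IP genes were 2 of 11 around Hoxa, 3 of 44 around Hoxb and 0 of 48 around Hoxc. Over all protein-coding genes, 17.1% were IP. Of the other genes around Hoxc, 42 were II, 4 were PP, 1 was PI and 1 was AMB.

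**Figure D3:**
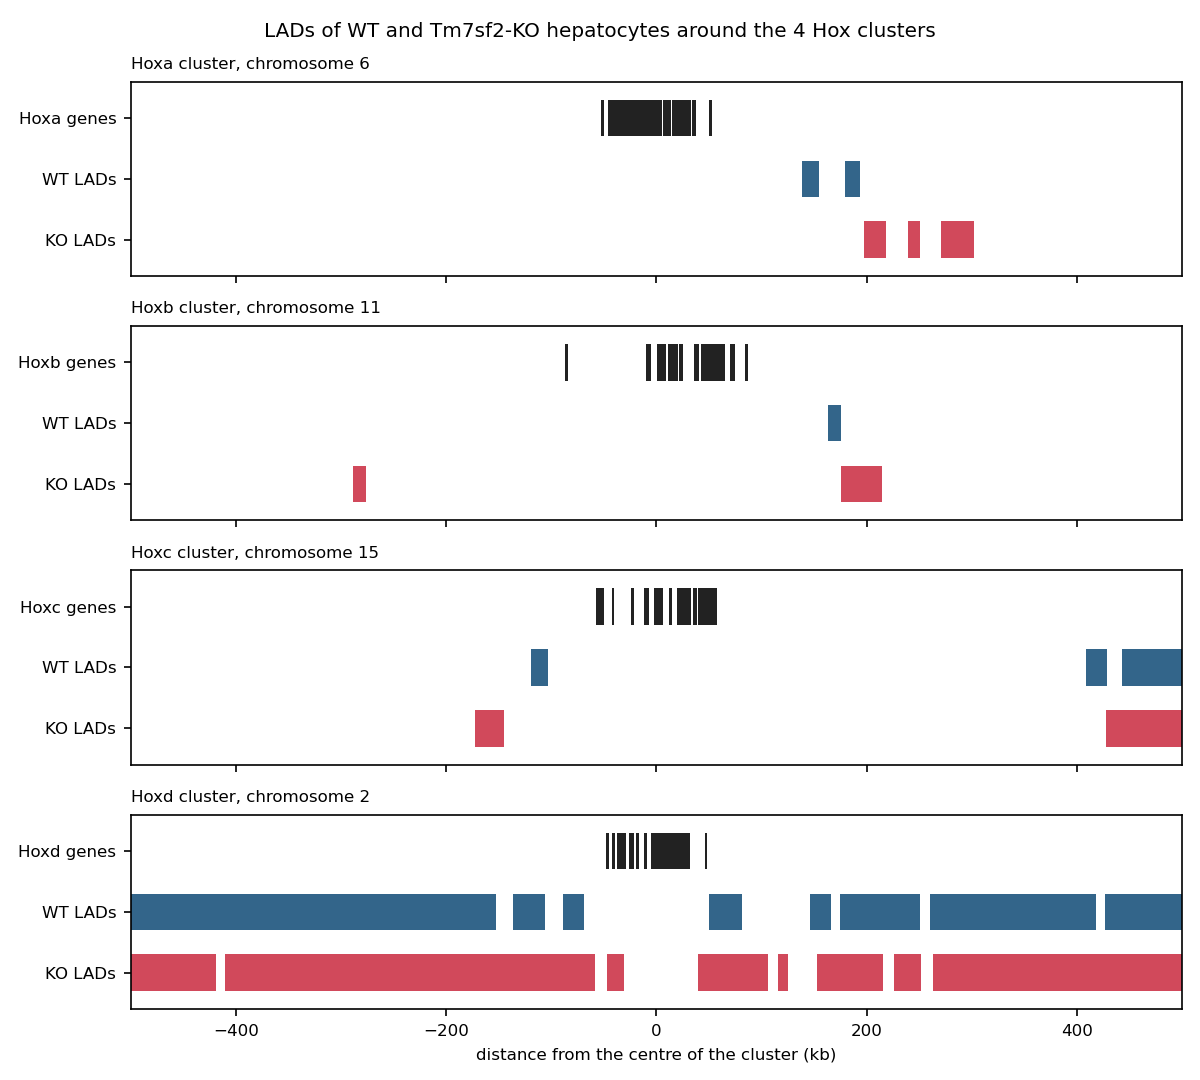
Each of the 4 panels plots the Hox genes of a cluster (top row, short genes drawn at least 2 kb wide), the WT LADs (middle row) and the KO LADs (bottom row) against the distance from the centre of the cluster (kb). LADs line the Hoxd cluster on both sides, whereas the LADs nearest to Hoxa, Hoxb and Hoxc are few and stand at different places in WT and KO.

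At Hoxa, Hoxb and Hoxc the nearest LADs were of 1 genotype only, and those of WT were short. The LAD nearest to Hoxa in WT, of 15.98 kb, stood 86.0 kb beyond Hoxa13 and was absent from the KO list. The KO list instead had a LAD of 21.5 kb at 144.4 kb on the same side. For Hoxb (chr11:96055630-96229570) the WT list had a LAD of 12.6 kb at 76.3 kb beyond Hoxb1. The KO list had one of 39.1 kb that began where the WT one ended and reached into Skap1, an adaptor gene of T cells. For Hoxc (chr15:102751534-102867274) the WT list had a LAD of 15.7 kb at 45.3 kb before Hoxc13, and the KO list one of 27.3 kb at 87.2 kb. Each of these WT LADs was thus shorter than 20 kb and was a WT-only DR in full.

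The LAD-free stretches around these 3 clusters were longer than at Hoxd in both genotypes. Hoxa lay in one of 1109 kb in WT and 1111 kb in KO, with the LAD on the side away from Hoxa13 917 and 861 kb away from the cluster. Hoxc lay in one of 511.6 kb in WT and 573.2 kb in KO, with the LAD on the Hoxc4 side 350.6 and 370.2 kb away. At Hoxb the stretch was 2583 kb in WT and 452.5 kb in KO, since a KO LAD of 12.05 kb stood on the Hoxb13 side where the nearest WT LAD was 2332 kb away. With the lists as deposited, Hoxb was the only 1 of these 3 clusters with a shorter stretch in KO, but this order rests on the short LADs. Without LADs under 20 kb the stretch was shorter in KO at all 3, with 4331 kb in WT and 1256 kb in KO at Hoxa, 5647 and 2628 kb at Hoxb and 4901 and 573.2 kb at Hoxc.

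The Hoxa genes were therefore listed farther from a LAD in KO, all 11 by the same 58.4 kb because they share the LADs. Hoxa13, a digit and genital tract gene, went from 86.0 kb to 144.4 kb. The median over Hoxa was 133.6 kb in WT and 192.0 kb in KO. The other genes of the row include Hoxa2, the selector gene of the second pharyngeal arch, at 181.5 and 239.9 kb, Hoxa9, a blood progenitor gene, at 115.8 and 174.2 kb, and Hoxa10 and Hoxa11, which are needed in the uterus, at 106.1 and 164.5 kb and at 100.7 and 159.1 kb.

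For Hoxb, 9 of 10 genes were farther from a LAD in KO, by 12.6 kb. Hoxb1, which acts in hindbrain segmentation, was the nearest with 78.8 kb in WT and 91.4 kb in KO, and Hoxb9 stood at 173.1 and 185.7 kb. Hoxb4, a blood stem cell gene in the middle of the row, stood at 127.9 and 140.5 kb. Hoxb13, the prostate and tail gene that lies apart from the rest of its cluster, went the other way, from 250.3 kb to 189.7 kb. Its nearest KO LAD was one of 12.05 kb outside the Hoxb13 end of the cluster, within Igf2bp1. The median over Hoxb was 147.0 kb in WT and 159.6 kb in KO.

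For Hoxc, all 9 genes were farther from a LAD in KO, by 41.8 kb. Hoxc13, a hair and nail gene, was the nearest with 45.3 kb in WT and 87.2 kb in KO, and Hoxc4 the farthest with 143.2 and 185 kb. Hoxc9, which sets the identity of thoracic motor neurons, stood between them at 100.7 and 142.5 kb, the median of the cluster. Thus the group 13 end faced the nearest LAD in Hoxa and Hoxc, and, in WT, for Hoxd13 to Hoxd8, whereas in Hoxb it was the group 1 end.

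**Figure D4:**
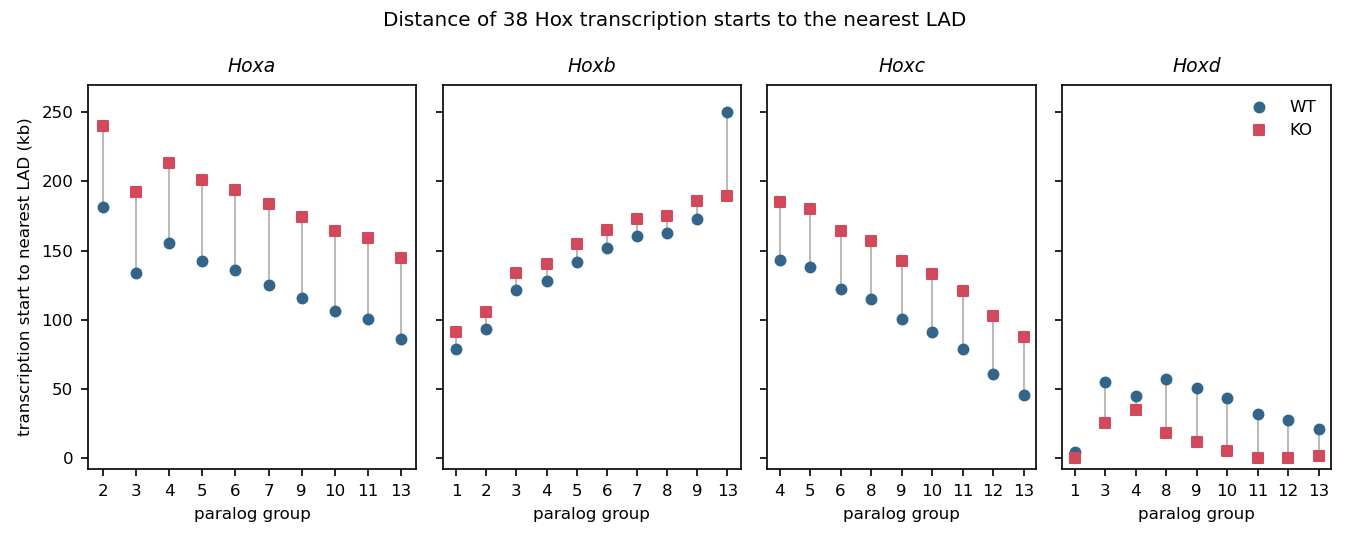
The distance from the transcription start to the nearest LAD (kb, linear axis) is plotted for 38 of the 39 Hox genes by paralog group, with a circle for WT and a square for KO joined by a line, and 1 panel per cluster. The Hoxd panel runs from 0 to 57.2 kb with KO below WT at every gene, and in the other panels KO lies above WT except at Hoxb13.

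Over all 39 Hox genes the median distance to a LAD was 114.8 kb in WT and 154.6 kb in KO, with 29 genes (74.4%) farther and 10 (25.6%) nearer in KO. Over all protein-coding genes the median was 114.4 kb in WT and 25.6 kb in KO, and 13.1% were farther and 66.5% nearer. These shares have an unlike base. The starts of 22.7% of all genes lay in a WT LAD and could not come nearer, and no Hox start did. The direction at Hoxa, Hoxb and Hoxc rests on short LADs of WT. When LADs under 20 kb were left out, 0 Hox genes were farther and all 39 were nearer in KO. Over all genes 60.4% were nearer, a share that again counts genes whose start lay in a WT LAD. The median over the Hox genes was then 1102 kb in WT and 154.6 kb in KO. The direction at Hoxd was the same in both settings, but of the IP genes only Hoxd1 then still overlapped a KO LAD, since the 16.7-kb LAD over Hoxd13, Hoxd12 and Hoxd11 was left out.

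Under this 20-kb minimum the Hoxd starts were 4.08 to 76.0 kb from a WT LAD and 0 to 45.9 kb from a KO LAD. Hoxd13, Hoxd12 and Hoxd11 were then 57.4, 64.1 and 68.5 kb away in WT and 9.58, 16.2 and 20.7 kb away in KO. Each of the 9 genes was again nearer to a LAD in KO. However, the minimum left out the WT LAD of 19.4 kb on the Hoxd13 side, just under the cutoff. The KO LAD of 352.4 kb that covers the same bases was kept. The WT distances of Hoxd13, Hoxd12 and Hoxd11 were longer than in the deposited list for that reason.

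Paralogs, the genes of the same group in different clusters, stood at unlike distances from a LAD in some groups and at like distances in others. In group 13, Hoxd13 stood 20.9 kb from a LAD in WT and 1.35 kb from one in KO, Hoxc13 at 45.3 and 87.2 kb, Hoxa13 at 86.0 and 144.4 kb and Hoxb13 at 250.3 and 189.7 kb. In group 1, Hoxd1 was at 4.08 kb and inside a LAD, against 78.8 and 91.4 kb for Hoxb1. In each group with a Hoxd member, that member was the nearest to a LAD in WT and in KO. The members of group 5, which has no Hoxd gene, lay within 138.0 to 142.3 kb in WT and 154.6 to 200.7 kb in KO. A distance of at least 50 kb to a LAD was found for 32 Hox genes (82.1%) in WT and 30 (76.9%) in KO, against 58.8% and 42.8% of all genes.

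The clusters also hold 6 microRNA genes, named after their positions were known, and all were II. Mir10b, in the Hoxd4 region of Hoxd, was 40.9 kb from a LAD in WT and 30.2 kb from one in KO. The other 5, Mir196b in Hoxa, Mir10a and Mir196a-1 in Hoxb and Mir196a-2 and Mir615 in Hoxc, lay 97.6 to 179.3 kb away in WT and 139.4 to 191.9 kb away in KO. Their values followed those of the Hox genes around them.

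In sequence the 4 clusters resembled each other. They held 2.06 (Hoxd), 2.16 (Hoxa), 2.35 (Hoxc) and 2.45 (Hoxb) GATC sites per kb, against 2.51 over the genome. Their GC content was 48.9% to 50.01%, against 41.8%, and their ratio of observed to expected CpG was 0.349 to 0.477, against 0.191. The longest piece between GATC sites in Hoxd was 3725 bp. Hoxd, the cluster entered by KO LADs, thus had the fewest sites per kb, and the first KO-only DR in it had 2.16 and the second 2.62 per kb.

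Genes that act with or on Hox genes were counted as lists for comparison. Beside their counts stand the 17.1% of all genes that were IP and the 56.6% that were II, and beside their distances the median over all genes, 114.4 kb in WT and 25.6 kb in KO. Of 19 other homeobox genes of the ANTP class, which are the nearest relatives of the Hox genes, 16 were II, 2 were IP (Evx2 and Mnx1, a motor neuron gene) and 1, Meox2, was PP. Their median distance to a LAD was 382 kb in WT and 38.2 kb in KO. Of 21 genes of families that were duplicated together with the clusters, 19 were II and 2 were IP, Skap1 beside Hoxb and Atp5g3, a gene of ATP synthase, near Hoxd. Neither list held a PI gene, a class that held only 5.43% of all genes.

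Of 9 TALE homeobox genes, whose proteins bind DNA together with Hox proteins, 4 were II, 2 were IP (Pbx3 and Meis1) and 3 were AMB, Meis2 and Pknox2 among them. These genes are long, and 4 of 9 touched a LAD already in WT. Of 22 Polycomb genes 18 were II and 4 were IP, namely Ezh2, the H3K27 methyltransferase, Mtf2, Phc1 and Phc3, a share close to that of all genes. The start of Ezh2 went from 150.9 kb to inside a KO LAD that covered 29.3% of its span. Of 12 Trithorax genes 10 were II and 2 were IP (Mll3, an H3K4 methyltransferase, and Dpy30, a subunit of such enzymes). The median distance to a LAD was 588.5 kb in WT and 73.4 kb in KO for Polycomb genes and 877.8 and 362.7 kb for Trithorax genes.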

How the data were processed

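The LAD and DR lists of hepatocytes from WT and Tm7sf2-KO mice were used. The authors digested methylated DNA at GATC sites, mapped the reads to mm9, computed log2(Dam-LaminB1 / Dam control) over the DpnI fragments and segmented it into LADs with DNAcopy (circular binary segmentation, default parameters). The processing notes of the submitters also name BWA and limma. The 4 deposited lists hold interval coordinates in bases, without a score or a count. Each was assigned to its genotype from its name and the sample labels. Subtracting the lists with a minimum of 10 kb returned the deposited DRs on 21 of 21 chromosomes.

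Genes came from the GENCODE annotation of NCBIM37 (the mm9 assembly), positions are 1-based, and the 2 records of Hoxa3 were merged. Overlap, class and distance were computed with Python 3.11.15, sequence features with samtools 1.23.1 and pysam 0.24.0, and figures with matplotlib 3.10.9. The steps were tested on simulated data (1200 intervals for cover, distance, class and gaps) with 0 errors. The named genes were all members, the LADs and DRs near the clusters, the genes they overlap, and 5 lists of related genes. Members and lists were chosen with earlier results of these data known. Each genotype is 1 pair of pooled libraries, so nothing was tested, and a value counted as unchanged within a factor of 1.5. The repeat content of the clusters was not computed because the genome file does not mark repeats. The alternatives were longer LADs and DRs, joined LADs, other spans and starts, other windows, and each cluster left out. Values of some genes are not reported here.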

Additional observations from a re-analysis of the deposited data

How the results depend on the processing

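Of 159 values recomputed under another setting for the counts, distances, stretches and window shares, 125 stayed within a factor of 1.5. A value of 0 in both settings counted as unchanged. Of 40 further values, the median distances within 1 cluster, 35 stayed. With LADs of at least 20 kb these medians in WT moved to 1150 kb (Hoxa), 2436 kb (Hoxb) and 411 kb (Hoxc). The KO median of Hoxd moved to 32.4 kb then, and to 0 with LADs joined across 100 kb. With LADs of at least 20 kb, 1 Hox gene overlapped a KO LAD and 1 (Hoxd1) was IP, the median distance to a WT LAD was 1102 kb, 0 Hox genes were farther and 39 nearer in KO, the LAD-free stretches were 4331 kb (Hoxa, WT), 5647 kb (Hoxb, WT), 2628 kb (Hoxb, KO) and 4901 kb (Hoxc, WT), and the window share in WT was 0 at Hoxa and 0 at Hoxb. These values follow from the short LADs that were left out. With DRs of at least 20 kb, 0 Hox genes were IP. When neighboring LADs up to 50 kb apart were joined, the lists gave window shares at Hoxa of 5.46% (WT) and 10.5% (KO). Joining them across up to 100 kb, a setting chosen after seeing the data, gave the same shares, 9 genes in KO LADs, 9 IP genes (all of Hoxd) and a LAD-free stretch of 0 kb at Hoxd in KO. When a 100-kb window around the middle of the gene replaced the span, 8 Hox genes overlapped a WT LAD and 9 a KO LAD, 9 were IP and 1 (Hoxc13) was PI. In 500-kb windows the LAD share was 6.03% at Hoxa (WT), 2.52% and 7.82% at Hoxb and 3.15% and 5.47% at Hoxc (WT and KO). In 2-Mb windows it was 2.12% and 9.89% at Hoxa, 0.630% and 3.54% at Hoxb and 16.01% and 15.1% at Hoxc (WT and KO). The window at Hoxc was cut to 1686 kb by the chromosome end. At Hoxc the KO share was then the lower one, as with LADs joined across 50 kb (10.7% in WT and 9.92% in KO). Without Hoxa 18 genes were farther in KO, and without Hoxd 1 gene was nearer. The 4 IP genes were the same with at least 10% of the span, DRs of any length, LADs joined across 50 kb and the span of the main transcript, and by the start alone they were Hoxd1, Hoxd11 and Hoxd12. The depth behind each LAD is unknown and the KO libraries had fewer usable reads by the study's text. The part of depth in these differences was not tested.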
